A study of Homo sapiens with 9 samples.

Results

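RNA from SKMEL28 cells in which p16 and ATR had both been knocked down (shp16/shATR) was compared with RNA from control cells (shCont) to describe the net state of the double knockdown across the genome. SKMEL28 is an established BRAF-mutant human melanoma line. The 3 shp16/shATR libraries and the 3 shCont libraries were chosen by their sample titles, and they are 6 of the 9 libraries sequenced. The other 3 come from cells with p16 knocked down alone (shp16) and are given here only to show at which step a difference appeared. All groups were grown in DMEM with 5% FBS, received lentiviral short hairpins and were selected with 1 µg/ml puromycin for 3 days. The hairpin was directed against GFP in shCont, against p16 in shp16, and against p16 and ATR in shp16/shATR. The legend of the study calls the 3 libraries of a group technical replicates, so every p-value below measures only the spread between these libraries and none of the variation between separate infections.

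p16, encoded by CDKN2A, binds CDK4 and CDK6 and keeps the D cyclins from activating them, which leaves RB free to hold E2F transcription factors in check. ATR is a kinase of the PIKK family that is recruited to single-stranded DNA at stalled forks and slows the cell cycle through CHK1. mTORC1, a complex of another kinase of that family, is switched on at the lysosome by amino acids and cholesterol, and sterol shortage releases SREBP2 from its anchor INSIG1 to raise the genes of cholesterol synthesis.

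Library totals ranged from 17314662 to 23588174 counts, and 15776 of the 48162 genes in the table passed the filter on low counts and were tested. One control library, shCont replicate 1, stood apart, with a median correlation of 0.975 with its group against 0.982 to 0.991 for the other 8 libraries. In shp16, replicate 1 stood apart as well, with a chi-square per degree of freedom of 38.1 and 37.4 against its group mates and 1.93 between those 2, so values of the single steps rest on it in part. The biological coefficient of variation was 0.149 with all 9 libraries, 0.0903 without shCont replicate 1 and 0.0553 without both. Counts of called genes in the lists are given without shCont replicate 1 as well where they differ. In that fit 15.9% of all genes were called higher and 17.5% lower. The 9 melanocytic markers summed to between 4050 and 4970 FPKM (fragments scaled to gene length and library size) in shp16/shATR and between 4870 and 5480 FPKM in shCont. All 6 immune markers and all 3 endothelial markers were below 1 FPKM in every library, with PTPRC and CD3E at 0. Of the 6 keratinocyte markers, KRT1, KRT5 and KRT14 were at 0 to 0.0962 FPKM in shCont and at 0.139 to 1.72 FPKM in shp16/shATR, and the 6 markers summed to between 10.1 and 14.9 FPKM in shCont and between 14.5 and 20.1 in shp16/shATR. KRT10 and DSG3 were not called, and TP63 was not tested. Of the 7 fibroblast markers, 6 were below 1 FPKM in every library, and the list summed to 10.2 to 10.9 FPKM in shp16/shATR and 11.2 to 13.5 in shCont. Nearly all of that sum was LUM, at 9.45 to 10.2 and 11.1 to 13.3 FPKM, which was not called (log2 fold change −0.32). COL3A1 (3.34), COL1A2 (2.55) and DCN (2.14) were called higher, at no more than 0.327 FPKM in any library. COL1A1 (2.12) was not called, and PDGFRA and PDGFRB were not tested. In bulk RNA, fewer cells of a type and less RNA per cell cannot be told apart.

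Both targeted genes were lower in the double knockdown. CDKN2A (ENSG00000147889) lies on chromosome 9 from 21967751 to 21995300, minus strand, in the coordinates of the deposited table, which are not those of GRCh38. It had 162, 112.5 and 103 CPM (counts scaled to library size with TMM factors) in shCont replicates 1 to 3 and 82.6, 90.0 and 82.4 in the shp16/shATR libraries, here called a, b and c. All 3 double-knockdown libraries lay below all 3 control libraries, and the highest control value was that of shCont replicate 1. The fitted difference was −0.57 on the log2 scale (SE 0.16, adjusted p = 0.0263, edgeR), and −0.35 without shCont replicate 1 (adjusted p = 0.0154, edgeR). Leaving out shp16/shATR library a, b or c put it short of the threshold (−0.54, −0.61 and −0.54, with adjusted p of 0.0905, 0.0626 and 0.0923, edgeR). Between shp16 and shCont CDKN2A was at −0.48, short of the threshold (adjusted p = 0.0723, edgeR). Between shp16/shATR and shp16 it was at −0.09 (adjusted p = 0.82, edgeR). Counts per gene do not separate the p16 transcript from the others of CDKN2A. ATR (ENSG00000175054), on chromosome 3 from 142168077 to 142297668, minus strand, had 45.9, 93.5 and 96.4 CPM in shCont and 39.9, 40.0 and 41.0 CPM in shp16/shATR. The groups did not overlap, but shCont replicate 1 was much nearer to the double knockdown than to the other controls. ATR changed by a log2 fold of −0.96 (SE 0.22, adjusted p = 0.00832, edgeR), and −1.24 without that library. Its steps were 0.155 between shp16 and shCont (adjusted p = 0.679, edgeR) and −1.12 between shp16/shATR and shp16 (adjusted p = 0.0128, edgeR). For each gene the two-sided exact permutation test over the 6 libraries gave p = 0.1, the smallest that 3 against 3 allow. LSS (ENSG00000160285), which encodes lanosterol synthase of cholesterol synthesis, moved the other way. LSS had 129, 126 and 115 CPM in shCont and 207, 208 and 194 CPM in shp16/shATR, with no overlap. It rose by 0.72 on the log2 scale (SE 0.0992, adjusted p = 0.000383, edgeR), made up of 0.49 between shp16 and shCont and 0.23 between shp16/shATR and shp16, the latter short of the threshold (adjusted p = 0.222, edgeR).

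**Figure D1:**
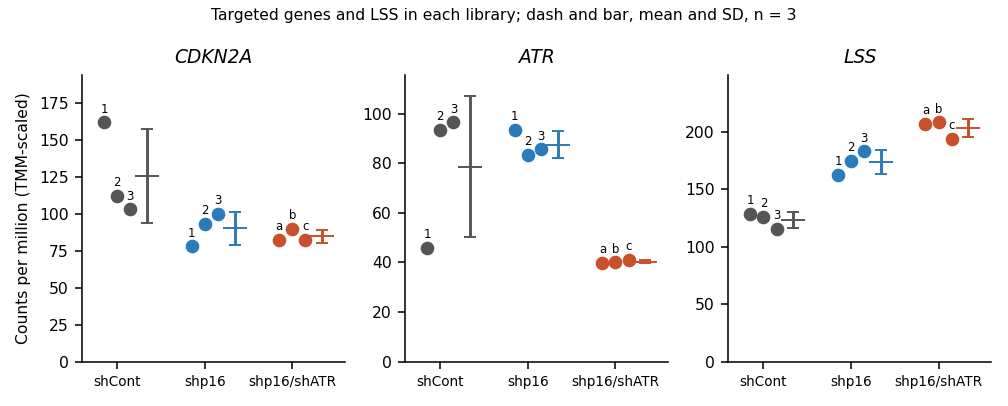
Level of CDKN2A, ATR and LSS in CPM (vertical axes from 0) in each of the 9 libraries, with the mean and SD of each group (n = 3). ATR was between 39.9 and 41.0 in the 3 shp16/shATR libraries and at 45.9 in shCont replicate 1, and LSS was above every shCont and shp16 library in all 3 shp16/shATR libraries.

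Across the genome, 3724 of 15776 genes (23.6%) differed between shp16/shATR and shCont, taking 0.05 as the limit of the adjusted p that edgeR's quasi-likelihood fit gave. Of these, 1724 (10.9% of genes tested) were higher and 2000 (12.7%) lower, so the changes ran in both directions. At least 1 on the log2 scale separated the groups in 608 genes that rose (3.85%) and 570 that fell (3.61%), and at least 2 in 178 (1.13%) and 176 (1.12%). Called with and without shCont replicate 1 were 1635 genes that rose (10.4%) and 1886 that fell. The libraries of both groups did not overlap in 6546 genes (41.5%). Without shCont replicate 1, 5395 of 16184 genes (33.3%) were called, 2569 higher (15.9%) and 2826 lower (17.5%), and leaving out shp16/shATR library a, b or c gave 2354, 2360 and 2410. Side by side, 2339 genes (14.8%) were called between shp16 and shCont and 981 (6.22%) between shp16/shATR and shp16. These comparisons share libraries, and each log2 fold change of the double knockdown is the sum of the other two.

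Calls came mostly from protein-coding genes, of which 26.5% were called (1534 higher and 1815 lower), against 9.67% of antisense genes and 6.33% of processed pseudogenes. In the quartile of genes with the lowest mean CPM 15.3% were called, and in that with the highest 23.9%, with 477 higher and 464 lower. The quartile with the greatest length held 612 genes called higher and 455 lower. The shortest quartile held 239 and 400. Spearman's rho between length and log2 fold change over the 15776 genes was 0.083, and it turned to −0.063 without shCont replicate 1, so the relation with length rests on that library. Genes share libraries and are not independent, and rho is given as a description.

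**Figure D2:**
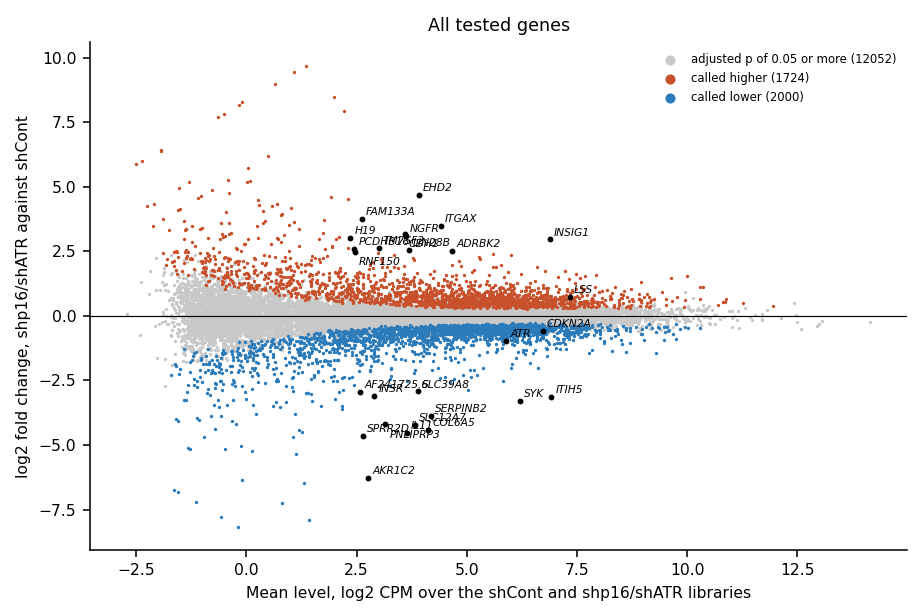
Log2 fold change in shp16/shATR against shCont (vertical axis) by mean level (horizontal axis, log2 CPM) for the 15776 tested genes, with the 1724 called higher and the 2000 called lower in colour and the largest changes, CDKN2A, ATR and LSS marked. Changes spread in both directions at all levels, and the points furthest from 0 are genes of low level.

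The largest rises among genes with at least 5 CPM on average included cell surface and adhesion genes. EHD2, whose product binds the neck of caveolae, had 1.37, 1.13 and 0.849 CPM in shCont and 26.4, 26.8 and 33.98 CPM in shp16/shATR (log2 fold change 4.69, SE 0.20, adjusted p = 8.76e-08, edgeR). It was already at 21.9 to 28.1 CPM in shp16. CDH1, encoding the adhesion protein E-cadherin, went from 1.77, 2.41 and 3.00 CPM to 22.3, 20.1 and 22.8 CPM (3.19, adjusted p = 6.42e-07, edgeR), again with shp16 close to the double knockdown at 16.9 to 18.9 CPM. In both genes the 3 double-knockdown libraries were close together and far above every control. ITGAX, encoding an integrin alpha chain best known from myeloid cells, rose in both steps, from 2.65 to 4.51 CPM in shCont through 12.2 to 14.2 CPM in shp16 to 35.1 to 42.1 CPM in shp16/shATR. NGFR, the nerve growth factor receptor that marks neural crest-like cells, had 2.83, 3.29 and 1.65 CPM in shCont, 7.21 to 8.14 in shp16 and 21.4, 22.5 and 22.5 in shp16/shATR (3.09, adjusted p = 2.23e-06, edgeR). Its steps were 1.55 and 1.55. H19, an imprinted long noncoding RNA, had most of its rise in the second step, with 0.899 to 1.502 CPM in shCont, 1.66 to 1.92 in shp16 and 8.59 to 10.2 in shp16/shATR (0.70 and 2.32 in the steps). LIN28B, an RNA-binding protein that blocks let-7 maturation, had 2.56 to 4.47 CPM in shCont and 21.7 to 22.1 in shp16/shATR (2.55), with steps of 1.198 and 1.35.

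INSIG1 and TM7SF2, both of the sterol pathway, also rose more in the second step than in the first, and their values are given with it. FAM133A (3.76), the protocadherin gene PCDHB16 (2.61), ADRBK2, which encodes a G protein-coupled receptor kinase (2.52), and RNF150 (2.49) were the other members of the 12 largest rises. In these 4 the log2 fold change between shp16/shATR and shp16 lay between −0.12 and 0.29, and none of those 4 differences passed the threshold.

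Secreted and epithelial genes were among the 12 largest falls. AKR1C2, an aldo-keto reductase that inactivates steroids, fell from 15.3, 12.4 and 12.7 CPM to 0.115, 0.130 and 0.256 CPM (log2 fold change −6.28, SE 0.29, adjusted p = 1.54e-07, edgeR). Its near-identical neighbour AKR1C1 also fell, by 3.29, and how reads common to both were counted is not given in the sources used here. IL11, a cytokine of the IL-6 family, went from 26.6, 23.1 and 22.4 CPM to 0.577, 0.865 and 1.64 CPM (−4.53, adjusted p = 8.91e-07, edgeR), and was as low in shp16 at 0.935 to 1.33 CPM. SYK, a tyrosine kinase of immune receptor signalling, was the most abundant but one of the 12, with 137, 131 and 137 CPM in shCont and 13.6, 13.0 and 14.8 CPM in shp16/shATR (−3.29, adjusted p = 2.21e-08, edgeR). Control and double-knockdown libraries were tightly grouped for SYK, and its steps of −2.53 and −0.76 both passed the threshold. ITIH5, which encodes a protein that binds hyaluronan, had 218, 212 and 221 CPM in shCont and 22.15, 25.1 and 27.2 in shp16/shATR (−3.13).

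SPRR2D, a small proline-rich protein of the cornified envelope (−4.66), SERPINB2, the plasminogen activator inhibitor PAI-2 (−3.86), and the zinc and manganese transporter SLC39A8 (−2.92) also fell in both steps, each step past the threshold. COL6A5, a collagen VI chain, had 26.1 to 37.4 CPM in shCont, 0.664 to 0.780 in shp16 and 1.44 to 1.64 in shp16/shATR, so that its net log2 fold change of −4.41 was smaller in size than that in shp16 alone (−5.55). INSR, the insulin receptor, had 11.7, 13.7 and 14.99 CPM in shCont and 0.750, 1.77 and 2.05 in shp16/shATR (−3.11). SLC12A7, a potassium-chloride cotransporter (−4.22), the lipase-related PNLIPRP3 (−4.19) and the unnamed transcript AF241725.6 (−2.95) made up the rest. The shCont and shp16/shATR libraries did not overlap in any of the 24 largest rises and falls, as their selection required.

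**Figure D3:**
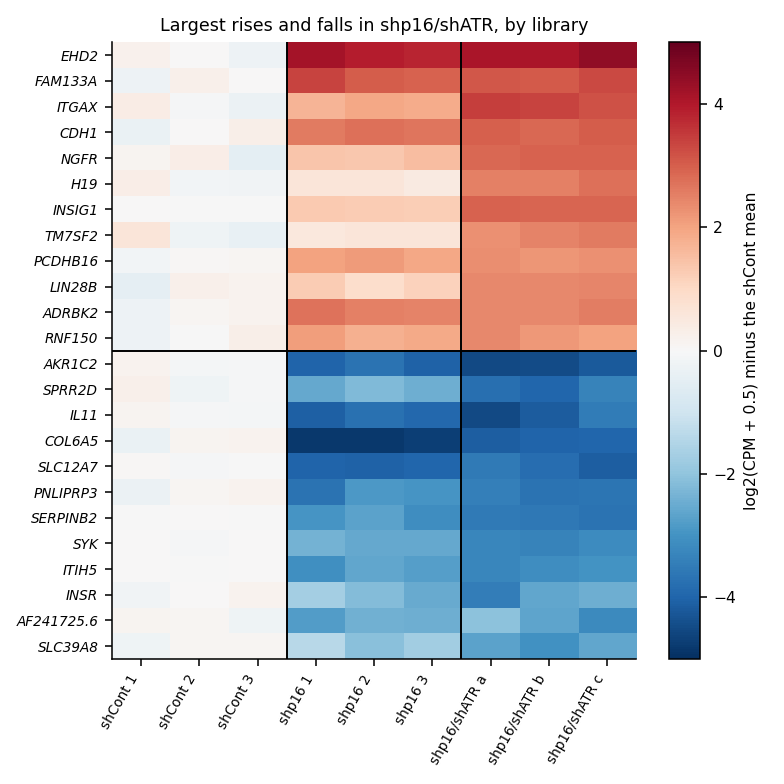
Level of the 12 largest rises and 12 largest falls in each of the 9 libraries, as log2(CPM + 0.5) minus the mean of the shCont libraries (colour scale from −5 to 5). The shp16 libraries resemble the double knockdown in EHD2 and IL11, lie between the groups in ITGAX and NGFR, and are close to shCont in H19.

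Some genes had no counts or almost none in 1 of the groups. Called higher in shp16/shATR were 32 genes with no more than 3 counts over the 3 shCont libraries, of which 11 had 0. Called lower were 20 genes with no more than 3 counts in shp16/shATR, of which 5 had 0. The former included zinc finger genes of chromosome 19. ZNF71 had 307 counts against 0 and was at least 106-fold higher, counted against a limit of 3 counts over the group, and ZNF28 had 258 against 0, at least 89.1-fold. ZNF320 had 556 counts against 2, a ratio of 288 (95% interval 79.3 to 2380, covering counting error only). Over the list of zinc finger genes of the block on chromosome 19, 20 of 31 were tested, and 8 rose while 6 fell (40.0% and 30.0%, against 10.9% and 12.7% of all genes). It was 8 and 11 without shCont replicate 1. Between shp16 and shCont 8 were called higher and 6 lower (against 7.23% and 7.59% of all genes), and none between shp16/shATR and shp16. Genes at 0 in shCont, such as ZNF28, passed the filter on low counts only through the knockdown libraries, so these shares are a description only. How reads shared between such paralogs were counted is not given in the sources used here. Epidermal genes made up another set, with KRT1 at 189 counts against 0 (at least 65.2-fold), KRT2, also at 0 in shCont, at least 42.5-fold higher, KRT5 at 83 against 0 (at least 28.7-fold) and DSG1 at 22 against 0 (at least 7.59-fold). These were present in shp16 as well, and among the keratinocyte markers KRT10, at 9.52 to 16.9 FPKM over the 9 libraries, did not pass the threshold (0.19). DSG3 (−0.04) did not pass it either, TP63 was not tested, and SPRR2D of the cornified envelope fell (−4.66). In shp16/shATR replicates 1 to 3, KRT5 was uneven at 0.89, 0.642 and 0.139 FPKM, and KRT1 at 1.58, 1.72 and 0.534. Whether other cells contributed the epidermal transcripts was not tested. Among the genes near 0 in shp16/shATR, OLFM1 had 336 counts in shCont and 1 in shp16/shATR (ratio 324, 95% interval 57.8 to 12900). PRKAA2, a catalytic subunit of AMPK, had 304 and 3 (ratio 97.8, 33.2 to 477), and the homeobox gene TLX3 had 220 and 1 (ratio 212, 37.7 to 8430).

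Among the genes with the highest FPKM that rose by at least 1 on the log2 scale were 2 that make fatty acids. SCD, the desaturase that makes oleate, had 588, 892 and 989 CPM in shCont and 1755, 1701 and 1897 in shp16/shATR (log2 fold change 1.12, adjusted p = 0.000953, edgeR). FASN, the fatty acid synthase, had 861.5, 727.5 and 783 CPM in shCont and 1708, 1724 and 1758 in shp16/shATR (1.13, adjusted p = 8.23e-05, edgeR). Neither gene had overlapping groups, as their selection required, and the spread was widest among the controls of SCD. PEG10, an imprinted gene derived from a retrotransposon (1.53), the alpha-tubulin gene TUBA1A (1.14) and the ubiquitin ligase gene TRIM63 (1.02) rose as well. TRIM63 had 104 to 117 CPM in shCont, 110 to 128 in shp16 and 218 to 231 in shp16/shATR, and its first step of 0.13 did not pass the threshold while its second of 0.89 did (adjusted p = 0.000871, edgeR).

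The abundant genes that fell included enzymes of the cell surface. MMP14, a membrane-bound collagenase, had 1048, 862 and 856 CPM in shCont and 343, 338 and 329 in shp16/shATR (−1.45, adjusted p = 1.18e-05, edgeR). NT5E, the ectonucleotidase CD73, had 515, 572.5 and 626 CPM in shCont and 215, 218 and 211 in shp16/shATR (−1.41). HIF1A, the oxygen-regulated transcription factor, had 449, 574 and 658 CPM in shCont and 271, 258 and 279 in shp16/shATR (−1.06). In all 3 genes the double-knockdown libraries were close together. They lay below every control library, as the selection of the abundant genes required. The phospholipase gene PLA1A (−1.05), CHPF of chondroitin synthesis (−1.10) and the BMP target ID3 (−1.05) were the other members.

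Cholesterol synthesis was the list with the largest rise. Of its 21 members, all tested, 19 rose and none fell, against 10.9% of all genes called higher, and the median log2 fold change was 1.21 where that of all genes was −0.02. Without shCont replicate 1, 20 rose with a median of 1.29, and leaving out any other single library left 18 or 19. MSMO1, a sterol demethylase, had 47.9, 49.1 and 55.3 CPM in shCont and 166, 169 and 171 in shp16/shATR (1.73, adjusted p = 8.74e-07, edgeR). SQLE, the squalene epoxidase just before LSS, had 61.4, 72.9 and 74.7 CPM in shCont and 229, 228 and 240 in shp16/shATR (1.74). The groups were separate in both genes, with the controls more spread than the double knockdown. DHCR7, which makes cholesterol in the last step (1.57), and ACAT2, which condenses acetyl-CoA (1.28), also rose. The net rise of LSS, 0.72, was below the median of its pathway. TM7SF2, a sterol reductase, had 3.45, 1.75 and 1.499 CPM in shCont and 12.3, 13.9 and 15.4 in shp16/shATR (2.62), the largest change of the list. PMVK (−0.55, adjusted p = 0.0753, edgeR) and EBP (0.17, adjusted p = 0.615, edgeR) did not pass the threshold. Both had their highest value in shCont replicate 1, and without it EBP rose by 0.51. The medians were 0.56 between shp16 and shCont and 0.47 between shp16/shATR and shp16.

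Of the genes that control SREBP2 and take up sterol, 15 of 18 were tested. Of these 7 rose and none fell (46.7% and 0%, against 10.9% and 12.7% of all genes, median 0.29). It was 7 and 1 without shCont replicate 1. INSIG1, which holds SREBP2 in the endoplasmic reticulum and is itself a target of it, had 27.1, 26.6 and 26.8 CPM in shCont, 63.0 to 67.0 in shp16 and 213, 206.5 and 207 in shp16/shATR (2.96, adjusted p = 2.21e-08, edgeR). Its controls had an SD of 0.237 CPM (n = 3), and the 3 groups were well apart. SREBF2, encoding SREBP2, rose by 0.61, SOAT1, which esterifies cholesterol, by 1.04, and TMEM97 by 0.93. Fatty acid synthesis had 10 of 16 tested genes called higher and none lower (62.5% and 0%, against 10.9% and 12.7% of all genes, median 0.73). Among the 10 were ACSS2, which makes acetyl-CoA from acetate (1.29), and the elongase gene ELOVL6 (0.81). Without shCont replicate 1 its median was 0.56, with 11 called higher.

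Promoter windows of 250 bases before to 50 after the start (RefSeq, GRCh38.p14) were found for 11203 of the 15776 tested genes by symbol, and searched on both strands for the sterol regulatory element TCACNCCAC and the CCAAT box of NF-Y. The former was in 1.42% of genes with a window, in 2.03% of those called higher and in 1.29% of those called lower. It was in none of the 16 cholesterol synthesis genes with a window, in 1 of 13 genes of the SREBP2 list and in 1 of 15 of fatty acid synthesis. Those 2 sites are shown, on the strand that carries the element in capitals, because they lie in the gene of SREBP2 itself (chr22:41832962-41832990, plus strand) and in that of the activator of acetyl-CoA carboxylase, MID1IP1 (chrX:38801409-38801437, minus strand).
SREBF2: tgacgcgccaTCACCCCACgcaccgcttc
MID1IP1: gcccttggaaTCACCCCACcaccgcccct
CCAAT was in 81.2% of the 16 cholesterol synthesis genes and 73.3% of the 15 fatty acid synthesis genes, against 43.2% of all genes with a window. A gene with several windows was counted when any held the motif, and such matches are a description of letters, not of binding.

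E2F targets and DNA replication genes fell. Of 53 members, all tested, 30 fell and 2 rose, against 12.7% and 10.9% of all genes, and the median was −0.45. Without shCont replicate 1, 32 fell and 5 rose (median −0.34), and without shp16/shATR library a, b or c 17, 17 and 19 fell. RRM2, a subunit of ribonucleotide reductase, had 323, 330 and 351 CPM in shCont, 275.5 to 320 in shp16 and 183, 179 and 190.5 in shp16/shATR (−0.86, adjusted p = 0.000126, edgeR). CHAF1A, of the chromatin assembly factor, had 96.3, 79.3 and 77.1 CPM in shCont and 44.6, 41.3 and 45.3 in shp16/shATR (−0.95). The repair nuclease gene EXO1 (−0.77), the histone chaperone gene ASF1B (−0.86) and the replication factor gene MCM10 (−0.80) also fell. For each of these 5 the value between shp16 and shCont, from −0.26 to 0.10, did not pass the threshold. The 2 genes that rose were POLE, a DNA polymerase subunit (0.53), and RPA1, which coats single-stranded DNA (0.39). The list's median was 0.10 between shp16 and shCont, with 6 called higher and 2 lower (against 7.23% and 7.59% of all genes), and −0.46 between shp16/shATR and shp16, with none called higher and 27 lower (against 2.73% and 3.49%).

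The E2F site, searched as TTTCGCGC, TTTGGCGC, TTTCCCGC or TTTGCCGC on both strands, where it can overlap itself, was in the promoter window of 24 of 45 genes of this list (53.3%) and of 6.51% of all genes with a window. Genes called lower held it in 8.01% and genes called higher in 3.44%. Uncalled genes among the 24, such as PCNA (0.16), GINS1 (0.11), MCM3 (−0.22) and MCM7 (−0.08), are not shown. Of the 6 windows shown, all of called genes and with the site in capitals, the genes of the first 5 fell and POLE rose. They lie at chr1:241848198-241848225 (plus), chr16:58392456-58392483 (minus), chr17:40287876-40287903 (plus), chr11:65261899-65261926 (plus), chr3:127598403-127598430 (plus) and chr12:132687343-132687370 (plus strand) of GRCh38.p14.
EXO1: aaggtcagccTTTCGCGCgctgtgtagg
GINS3: ttgaaactcgTTTCCCGCgcccggggac
CDC6: gccattcggaTTTGGCGCgagcgcggct
POLA2: tggctcccggTTTCGCGCatgcgtgcac
MCM2: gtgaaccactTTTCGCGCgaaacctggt
POLE: aggggagaaaTTTGGCGCgctcccaccc
In the list, genes with the site had a median of −0.32 and those without it −0.52, so the site did not mark the members that fell most.

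Of 41 G2 and mitosis genes 9 fell and none rose (22.0% and 0%, against 12.7% and 10.9% of all genes, median −0.18). Without shCont replicate 1 it was 18 and 4, and without shp16/shATR library a, b or c 3, 3 and 2 fell, so the count moved with the libraries fitted. Fewer genes were called across the genome as well without a shp16/shATR library. Among the 9 were the motility receptor gene HMMR (−0.51), the kinase gene PBK (−0.47) and CDC25C, the phosphatase that opens mitosis (−0.46). CDK1 itself had 72.5, 72.0 and 75.3 CPM in shCont and 52.0, 58.7 and 51.5 in shp16/shATR (−0.44, adjusted p = 0.023, edgeR). MKI67 (0.13) and CCNB1 (−0.14), named after their values were seen, did not pass the threshold. Of the 33 with a promoter window 75.8% held the CHR element TTTGAA, against 13.9% of all genes.

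Genes of 3 cell cycle inhibitors rose in the same libraries. CDKN1A, encoding p21, had 23.9, 19.98 and 22.2 CPM in shCont, 21.2 to 25.5 in shp16 and 42.3, 44.8 and 46.3 in shp16/shATR (1.01, adjusted p = 9.99e-05, edgeR). CDKN1B, encoding p27, had 36.45, 43.5 and 39.8 CPM in shCont and 86.0, 82.1 and 77.0 in shp16/shATR (1.03), and CDKN2B, encoding p15 beside p16, had 16.3, 18.6 and 20.8 CPM and 36.5, 36.8 and 40.2 (1.03). All 3 genes were separate between the groups, and CDKN1A stayed near the control level in shp16. E2F4, a repressor E2F, fell by 1.12. Of the 17 tested genes of this family 5 rose and 3, CDKN2A, E2F4 and CCND3, fell (29.4% and 17.6%, against 10.9% and 12.7% of all genes, median 0.01). These counts were 7 and 5 without shCont replicate 1 (median −0.15), and without shp16/shATR library a, b or c 1 fell.

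The counts of checkpoint and repair genes moved with the libraries fitted. In the ATR checkpoint list, which holds ATR itself, 2 of 21 rose and 4 fell (against 10.9% and 12.7% of all genes, median −0.17). It was 3 and 9 without shCont replicate 1, and without shp16/shATR library a, b or c 1, 2 and 2 fell. Beside ATR, CLSPN, the adaptor through which ATR reaches CHK1, had 29.2, 50.6 and 58.05 CPM in shCont and 24.4, 27.0 and 27.6 in shp16/shATR (−0.80, adjusted p = 0.0139, edgeR), with shCont replicate 1 nearest to the double knockdown as for ATR. SMARCAL1, a fork remodeller, fell by 0.46, and CHEK1, encoding CHK1, was called only without shCont replicate 1 (−0.22 with it, −0.32 without it). Of the other PIKK kinases and their chaperones, TTI1 alone of 11 was called (−0.41), and MTOR was at 0.30 (adjusted p = 0.228, edgeR). Of 42 DNA break repair genes 2 rose and 6 fell (4.76% and 14.3%, median −0.24), a share of falls near that of all genes. Without shp16/shATR library a, b or c 4 fell. Without shCont replicate 1 it was 3 and 19, against 15.9% and 17.5% of all genes, and the median was −0.31. The helicase gene RECQL4 (−0.71) and the homologous recombination genes XRCC2 (−0.63) and FANCF (−0.52) fell in both fits, while MDC1, the adaptor at broken ends, rose by 0.47.

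The mTORC1 pathway list had 6 genes called higher and 3 lower of 38 tested (15.8% and 7.89%, against 10.9% and 12.7% of all genes, median 0.02). With shCont replicate 1 left out it was 11 and 4, and without shp16/shATR library a, b or c 1 was lower. Inhibitors of the pathway were among those that rose: DDIT4, which acts through TSC2, had 56.7, 53.6 and 50.3 CPM in shCont and 109, 106 and 101 in shp16/shATR (0.97, adjusted p = 6.57e-05, edgeR), and SESN3, a sestrin, rose by 1.01. TBC1D7, a subunit of the TSC complex, rose by 0.93. The Rag GTPase genes RRAGC (0.55) and RRAGA (0.54), whose products activate mTORC1, rose too. GPR155, a lysosomal cholesterol sensor, fell by 0.89. Of 38 lysosome genes 7 rose and 7 fell (18.4% each, median −0.01), and 8 and 6 without shCont replicate 1, while 2 to 10 fell when 1 library was left out, 2 without shp16/shATR library c and 10 without shp16 replicate 1. They included the protease gene CTSS at −1.11 and the lipase gene LIPA, which frees cholesterol from its esters, at 0.58. The thioesterase gene PPT1 (0.73) and ATP6AP1, of the proton pump (0.69), were the other members with the smallest adjusted p.

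Stress lists were mixed, beside 10.9% of all genes called higher and 12.7% lower, or 15.9% and 17.5% without shCont replicate 1. ATF4 targets had 8 of 37 genes called higher and 3 lower (21.6% and 8.11%, median 0.01), and 12 and 6 without shCont replicate 1, with CTH, of cysteine synthesis (0.90), higher and the factor gene CEBPB lower (−0.58). Between shp16 and shCont 11 of them were called higher and none lower (against 7.23% and 7.59% of all genes, median 0.23), and between shp16/shATR and shp16 1 was higher and 4 lower (against 2.73% and 3.49%, median −0.19). The unfolded protein response had 1 of 24 called higher and 3 lower (4.17% and 12.5%, and 2 and 4 genes without shCont replicate 1). Its chaperone gene HSPA5 was at −0.45 and EDEM1, of protein disposal, at 0.64. p53 targets had 3 of 27 called higher and 7 lower (11.1% and 25.9%, and 6 and 9 without shCont replicate 1), so that the rise of CDKN1A stood beside falls of GADD45A (−0.93), PHLDA3 (−0.90) and DDB2 (−0.66). For NRF2 targets 4 of 22 were higher and 3 lower (18.2% and 13.6%). The number higher was 8 without shCont replicate 1 and 1 without shCont replicate 2 or shp16/shATR library a or c. They included glutathione reductase GSR at 0.67 and thioredoxin reductase TXNRD1 at −0.64. Hypoxia and glycolysis genes had 5 of 34 called higher and 2 lower (14.7% and 5.88%), and 10 and 6 without shCont replicate 1, among them the glucose transporter SLC2A3 (1.62) and the aldolase gene ALDOC (3.19), and NDRG1 (−0.83) and ADM (−0.73), in the samples in which HIF1A mRNA was lower.

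The numbers called higher in the ribosomal protein, respiratory complex and synthetase lists depended on shCont replicate 1. Of all genes 10.9% were called higher and 12.7% lower, and 15.9% and 17.5% without that library. None of 77 cytosolic ribosomal protein genes was called by edgeR, where 4 had an unadjusted p under 0.05, DESeq2 called 3 lower and limma none, and their median was −0.10. Without that library 20 were called higher and 1 lower, and the median was 0.16. None was called higher and 2 were called lower without shCont replicate 2, 5 without shCont replicate 3, 7 with no filter on low counts and 1 with scaling by library size alone. Nuclear genes of the respiratory complexes had 7 of 74 called lower and none higher (9.46% and 0%, median −0.26), among them NDUFC2 (−0.99) of complex I. With shCont replicate 1 left out it was 8 higher and 7 lower (median −0.03), and the number lower ran from 1 without shp16/shATR library a to 18 without shCont replicate 3. Mitochondrial ribosomal proteins had 2 of 73 called higher and 9 lower (2.74% and 12.3%), such as MRPL10 (0.56) and MRPS30 (−0.45), and 14 and 11 without shCont replicate 1. The number lower was 1, 1 and 2 without shp16/shATR library a, b or c, and 3 and 2 without shp16 replicate 2 or 3. Of the 13 genes of the mitochondrial genome none was called by edgeR with or without shCont replicate 1, by DESeq2 or by limma, and none had an unadjusted p under 0.05 in edgeR, but 4 were called lower with no filter on low counts and 2 without shCont replicate 1 and shp16 replicate 1 together. Cytosolic aminoacyl-tRNA synthetases had 2 of 20 called higher, WARS (1.04) and MARS (0.40), and without shCont replicate 1 had 7 higher and 1 lower.

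Secreted inflammatory factors were the list with the largest fall. Of 32 members 17 passed the filter, of which 13 fell and 2 rose (76.5% and 11.8%, against 12.7% and 10.9% of all genes, median −1.46). Leaving out shCont replicate 1 gave 13 and 3 (median −1.33). CXCL8, listed as IL8, a neutrophil chemokine, had 94.2, 97.9 and 98.7 CPM in shCont, 18.3 to 20.2 in shp16 and 16.8, 17.6 and 16.6 in shp16/shATR (−2.51, adjusted p = 8.17e-08, edgeR). IL1B had 19.4, 13.4 and 17.3 CPM in shCont and 2.77, 2.08 and 2.77 in shp16/shATR (−2.72). The growth factor carrier IGFBP3 (−1.62), IL24 (−1.73) and INHBA, an activin subunit (−2.70), fell as well. All 3 double-knockdown libraries of IL8 and IL1B lay far below the controls and near the shp16 libraries. The list's median was −1.30 between shp16 and shCont and −0.13 between shp16/shATR and shp16. CSF1, the macrophage growth factor (2.06), was among those that rose.

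Interferon-stimulated genes rose in part and antigen presentation fell in part. Of 43 tested interferon-stimulated genes 13 rose and 2 fell (30.2% and 4.65%, against 10.9% and 12.7% of all genes, median 0.13). The counts were 16 and 5 without shCont replicate 1 (median 0.25). MX1, an antiviral GTPase, had 12.95, 12.9 and 12.9 CPM in shCont and 37.6, 33.5 and 43.3 in shp16/shATR (1.56, adjusted p = 1.29e-05, edgeR), and was already at 34.8 to 43.3 in shp16. IFITM3, which blocks virus entry, rose by 1.72, and IFIT3 and IFIT2, which bind viral RNA, by 1.01 and 1.13. IFIT3 was at 19.2 to 19.7 CPM in shCont, 21.9 to 26.4 in shp16 and 38.4 to 40.8 in shp16/shATR. In MHC class I presentation 4 of 17 genes fell and none rose (23.5% and 0%, median −0.34). It was 4 also without shCont replicate 1, 2 without shp16/shATR library c and 6 without shp16 replicate 1. HLA-B had 53.3, 41.3 and 32.2 CPM in shCont and 19.96, 18.9 and 16.3 in shp16/shATR (−1.20, adjusted p = 0.0107, edgeR). The peptidase genes ERAP2 (−1.43) and ERAP1 (−0.41) and the regulator NLRC5 (−1.05) were the other 3.

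Matrix genes rose as a list. Of 36, 29 were tested, 13 rose and 1 fell (COL4A2, −1.05), with a median of 0.55 (44.8% and 3.45%, against 10.9% and 12.7% of all genes). The collagen gene COL6A5, one of the largest falls (−4.41), is not in this list and not in these counts. Without shCont replicate 1 the counts were 14 and 4 (median 0.46). THBS1, a matrix glycoprotein that activates TGF-beta, had 3.36, 4.78 and 4.70 CPM in shCont and 15.8, 16.96 and 15.3 in shp16/shATR (1.91, adjusted p = 1.54e-05, edgeR). COL9A3, a collagen IX chain, had 24.4, 21.01 and 18.1 CPM in shCont, 34.7, 79.3 and 72.2 in shp16 and 112, 120 and 91.7 in shp16/shATR (2.35). The collagen crosslinking enzyme gene LOXL2 (1.25) and COL11A1 (1.00) rose too. COL3A1 and COL1A2, which count among the 13 and are also fibroblast markers, were at no more than 0.167 and 0.139 FPKM in any shp16/shATR library, and at 0 in shCont replicates 2 and 3. Matrix proteases and their inhibitors had 6 of 20 called higher and 7 lower (30.0% and 35.0%, and 7 and 8 genes without shCont replicate 1). MMP3 (−2.69) and MMP1 (−1.28) stood beside MMP14, and the sheddase gene ADAM19 was at 1.60. Integrins and laminins had 8 of 24 higher and 4 lower (33.3% and 16.7%). It was 9 and 7 without shCont replicate 1, and 4 higher without shp16/shATR library b. ITGA3 (0.67), ITGA6 (0.84), ITGA1 (−0.89) and LAMA5 (−1.14) had the smallest adjusted p of the list. ITGAX (3.49), given above with the largest rises, is not among them. YAP and TEAD targets had 6 of 26 higher and 6 lower (23.1% each). It was 6 and 7 without shCont replicate 1, and 3 higher without shp16/shATR library a or b. TGF-beta and BMP genes had 4 of 24 in each direction (16.7% each, and 8 and 6 genes without shCont replicate 1), with BMP7 (1.25) and ID4 (0.88) higher.

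Lineage genes moved in both directions. Pigmentation genes and MITF targets had 3 of 27 called higher and 6 lower (11.1% and 22.2%, against 10.9% and 12.7% of all genes, median −0.09). It was 4 and 7 without shCont replicate 1. MITF was at −0.13 and SOX10 at −0.06, neither called, whereas TYRP1, an enzyme of melanin synthesis, had 121, 136 and 145 CPM in shCont, 88.6 to 107 in shp16 and 55.5, 52.75 and 53.6 in shp16/shATR (−1.31, adjusted p = 1.41e-05, edgeR). SLC45A2, a melanosome transporter, fell by 0.62, and BCL2A1, an MITF target against apoptosis, by 0.72. Of 20 tested genes of dedifferentiation and neural crest 5 rose and 2 fell (7 and 3 without shCont replicate 1), with CDH2, encoding N-cadherin, at 18.03, 19.98 and 23.5 CPM in shCont and 72.1, 76.2 and 78.4 in shp16/shATR (1.88, adjusted p = 1.78e-06, edgeR). The mRNA of both cadherins, CDH1 and CDH2, was higher in the same libraries. ERBB3 rose by 1.04 and SNAI2, a neural crest factor, fell by 0.69.

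Of 33 genes of ERK output, AP-1 and MYC 3 rose and 10 fell (9.09% and 30.3%, against 10.9% and 12.7% of all genes, median −0.26). Leaving out shCont replicate 1 gave 6 and 15, without shCont replicate 2 it was 1 and 6, and without shp16/shATR library a, b or c 4, 6 and 5 fell. FOSL2 had 95.7, 120 and 116 CPM in shCont and 56.6, 61.4 and 60.3 in shp16/shATR (−0.89, adjusted p = 0.000185, edgeR), FOSB fell by 1.73, MAFF by 0.85 and EGR3 by 0.81. MYC had 235, 187.5 and 189 CPM in shCont and 151, 154 and 148 in shp16/shATR (−0.43). Apoptosis regulators of the BCL2 family had 4 of 16 called higher and 4 lower (25.0% each), 6 and 4 without shCont replicate 1, and 2 lower without shp16/shATR library a, b or c. The killers HRK (2.61), BMF (1.23) and BCL2L11, encoding BIM (1.18), rose, and BID fell by 1.19. HRK remained a gene of low level, at 0.619, 1.18 and 1.10 CPM in shCont and 5.94, 5.67 and 6.00 in shp16/shATR.

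**Figure D4:**
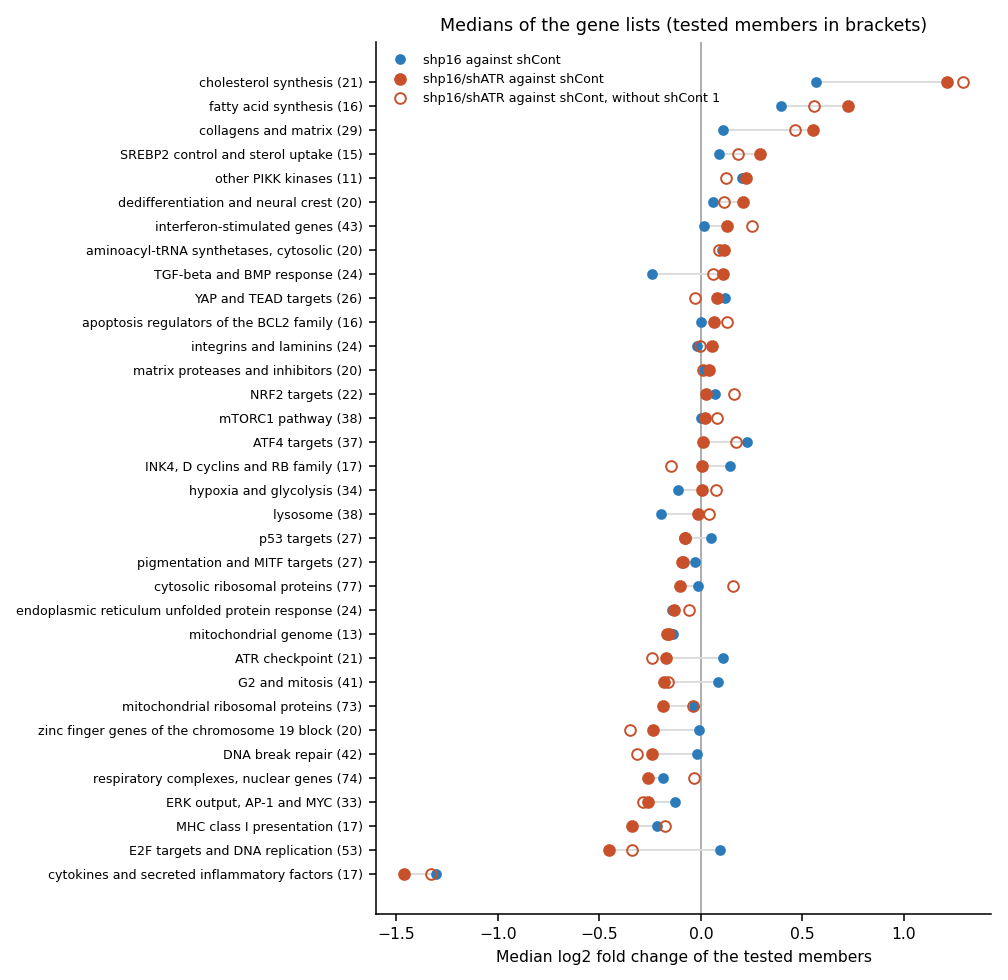
Median log2 fold change of the tested members of 34 gene lists in shp16/shATR against shCont with all libraries (filled) and without shCont replicate 1 (open), beside shp16 against shCont. Cholesterol synthesis stands at 1.21 and the secreted inflammatory factors at −1.46, and the E2F list is at −0.45 in the double knockdown and at 0.10 in shp16.

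Some genes had larger differences at each step than in the net comparison. These were named after their values were seen. EGR1, an immediate early factor, had 51.65, 51.7 and 52.0 CPM in shCont, 162, 153 and 153.5 in shp16 and 63.2, 62.7 and 65.9 in shp16/shATR, so the net log2 fold change was 0.30 (adjusted p = 0.0327, edgeR) with steps of 1.59 and −1.29. CHAC1, a glutathione-degrading ATF4 target, had 1.06, 1.08 and 0.450 CPM in shCont, 3.90 to 6.34 in shp16 and 0.9805, 1.30 and 1.025 in shp16/shATR, and did not pass the threshold in the net comparison (0.35, adjusted p = 0.517, edgeR). CCND1, encoding cyclin D1, had 681, 878 and 977 CPM in shCont, 353 to 498 in shp16 and 648, 616 and 722 in shp16/shATR (−0.35, adjusted p = 0.145, edgeR). For CCND1 the double knockdown overlapped with the control range only through shCont replicate 1, and without that library the fall passed the threshold (−0.49, adjusted p = 0.0163, edgeR). All steps of these 3 genes passed the threshold.

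Differences were also uneven along the chromosomes. On chromosome 12, 137 genes were called higher and 53 lower (16.5% and 6.38% of 831, against 10.9% and 12.7% of all genes), with a median of 0.14 in both fits. On chromosome 2 it was 86 and 221 (7.88% and 20.3% of 1091, median −0.14), and on chromosome 5 63 and 130 (8.89% and 18.3% of 709, median −0.12). Chromosome 19 had 68 and 209 of 1105 (median −0.22), but its median was −0.10 without shCont replicate 1. Blocks of 20 Mb in the coordinates of the table were then taken, a step chosen after the values were seen. Of 155 blocks with at least 20 tested genes, 7 had a median of at least 0.25 from 0 with and without shCont replicate 1. The first 20 Mb of chromosome 9, whose border lies before CDKN2A, had a median of 0.55 over 56 genes, of which 24 were called higher and 5 lower. Relative to the mean of the 9 libraries, the median level of these genes was −0.47, −0.25 and −0.26 on the log2 scale in shCont, 0.10, 0.16 and 0.22 in shp16 and 0.15, 0.21 and 0.14 in shp16/shATR. All 6 knockdown libraries were above all 3 controls there, but the block was picked for its difference from these controls. The block from 140 to 160 Mb of chromosome X was at 0.29 over 89 genes. Lower were blocks of chromosome 2 from 20 to 40 Mb (−0.26, 132 genes) and from 60 to 80 Mb (−0.30, 138 genes), chromosome 4 from 120 to 140 Mb (−0.34, 42 genes), chromosome 5 from 20 to 40 Mb (−0.34, 39 genes) and chromosome 19 from 20 to 40 Mb (−0.31, 192 genes). In shp16 against shCont the medians of these 7 blocks, in the order given, were 0.55, 0.28, −0.21, −0.28, −0.24, −0.26 and −0.28. Between shp16/shATR and shp16 they lay between −0.16 and 0.06. With upper-quartile, DESeq2 and library-size-only scaling the first block of chromosome 9 was at 0.526, 0.562 and 0.546. The 7 blocks were chosen for medians at least 0.25 from 0, so keeping their side of 0 under these scalings is no test.

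**Figure D5:**
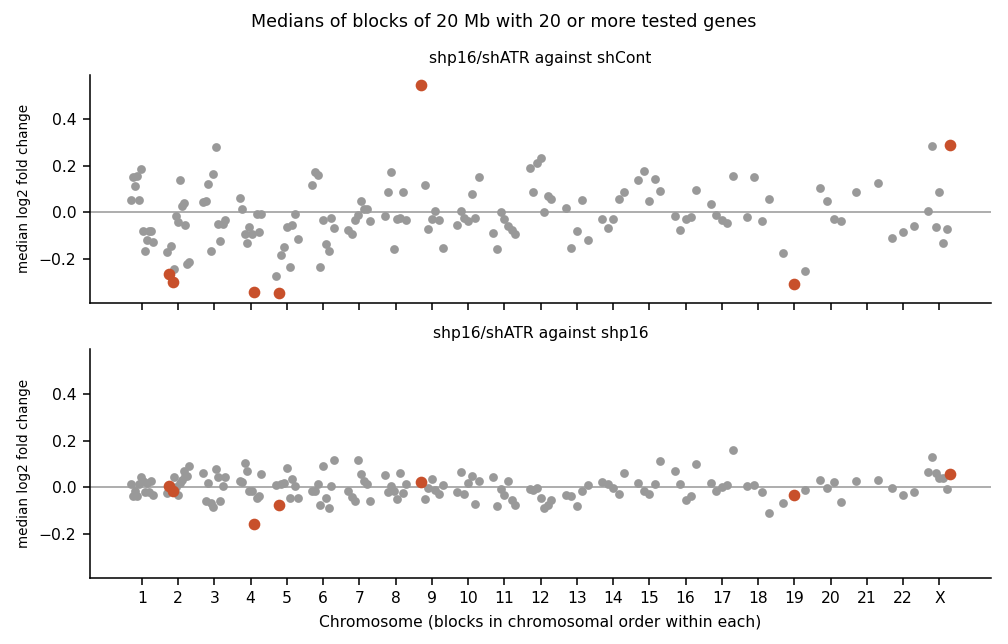
Median log2 fold change of the tested genes in blocks of 20 Mb, in chromosomal order within each chromosome, in shp16/shATR against shCont (upper panel) and against shp16 (lower panel), with the 7 blocks described in the text in colour. The highest is the first block of chromosome 9 at 0.55 in the upper panel and at 0.02 in the lower.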

How the data were processed

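RNA from 9 libraries of SKMEL28 cells was sequenced (NEBNext Ultra 2 kit, after Trizol extraction and a column with DNase). The authors deposited raw counts per gene with no normalization. They also deposited FPKM values, scaled by the authors to gene length and library total, which followed from the counts to within a relative difference of 4.22e-07. The submitters' notes name STAR 2.6.1, DESeq2 and GRCh38. Only 4.48% of the 15306 gene starts compared lie within 1000 bases of a GRCh38 annotation (GENCODE 29), so positions are given as in the table and no sequence was read from them. How strand and shared reads were treated is not given in the sources used here. The 3 shp16/shATR count columns carry the same header and are called a, b and c.

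The main test was edgeR 4.0.16 (R 4.3.3) on the counts, with TMM scaling, its filter on low counts, 1 fit over all 9 libraries and the quasi-likelihood test. Genes with a Benjamini-Hochberg adjusted p under 0.05 are called. DESeq2 1.42.0 and limma 3.58.1 on log2(FPKM + 1) or log2(FPKM + 0.1), with mean FPKM of at least 0.5, other scalings and filters, and fits without 1 library were alternatives. On simulated data for this comparison (15425 genes) 77 of 100 genes changed by 1 on the log2 scale and 98 of 100 changed by 2 were recovered, with 7 other calls. Changes were planted only in genes above a limit of mean level, and counts were drawn independently for each gene. A deviation of a library shared across genes was thus not simulated, and these figures need not hold for the real calls. Fold limits for genes at 0 used 3 counts over the group, and 95% intervals were exact and cover counting error only.

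Genes named are CDKN2A, ATR and LSS. They also include the 12 largest rises and 12 largest falls called with and without shCont replicate 1, with a mean of at least 5 CPM and no overlap. Under the same conditions come the 6 called higher and 6 called lower with the highest FPKM and a log2 change of at least 1. Last are the 4 members of each list with the smallest adjusted p. Some genes that meet this rule are not reported here. Near-zero genes, blocks and further genes of a list were picked once their values had been seen. The members and the lists were chosen with earlier results of these data known.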

Additional observations from a re-analysis of the deposited data

How the results depend on the processing

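The count of genes called in shp16/shATR against shCont changed with the method and with the libraries fitted. It was 4182 with DESeq2, 3723 with upper-quartile scaling, 3012 with only the 2 groups fitted and 3148 with limma on FPKM. Leaving out 1 shCont library gave 3081 to 5395 genes, 1407 to 2569 higher and 1674 to 2826 lower. Without shp16/shATR library a 2354 genes were called (1127 higher, 1227 lower), without b 2360 (1106 and 1254) and without c 2410 (1174 and 1236), each with fewer samples. Without shCont replicate 1 and shp16 replicate 1 together, an alternative chosen after seeing the data, 7130 were called, 3396 higher and 3734 lower. At an adjusted p of 0.01 it was 1974, 934 higher and 1040 lower, and with a log2 fold change of at least 1 it was 1178, 608 higher and 570 lower; both are stricter by construction.

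CDKN2A kept its direction in every alternative but lost its call with only the 2 groups fitted (−0.565, adjusted p = 0.0510, edgeR), and the cause was not tested. Without shp16/shATR library a, b or c it lost its call at −0.543, −0.609 and −0.544, and it ranged from −0.693 to −0.348 without 1 shCont library. ATR (−1.244 to −0.782) and LSS (0.672 to 0.752) kept their calls in every alternative. Of 146 other named genes with a call, 146 kept their direction in each of the 19 alternatives that tested them, and 128 their call as well. Not all were tested in each: with at least 10 counts in every library 135 kept their call and 2 lost it. These genes were chosen for small adjusted p or large changes, some of them for a call without shCont replicate 1, so keeping the call was in part built in. Of 34 lists, 23 kept the sign of their median in every alternative. Among the 11 others, the list of cytosolic ribosomal proteins ranged from −0.249 to 0.156.

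Replicate numbers in the labels do not show that libraries of different groups are paired. Deviations of same-numbered FPKM libraries from their group means correlated at 0.0433, 0.0711 and 0.135 over 13843 genes, each the best match for its number, which is a hint from the data only. With the replicate number as a block, limma called 2602 genes, 1224 higher and 1378 lower, against 3148 without it. CDKN2A was then at −0.535 (adjusted p = 0.0796, limma).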
